A study of Mus musculus with 4 samples.

Results

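The 10 genes followed in adult mouse hair follicle stem cells (HF-SCs) were the glucocorticoid receptor gene Nr3c1, the mineralocorticoid receptor gene Nr3c2, the glucocorticoid-responsive genes Fkbp5, Tsc22d3, Sgk1, Klf9 and Zbtb16, the steroid-activating enzyme gene Hsd11b1, and the gene pair Gas6 and Axl. They were picked by name from the deposited expression table, with a mean normalized count above 0 as the only other condition. All 10 met it, out of 24421 rows and 17044 genes with a mean above 0. The study asked what a raised level of miR-205 does to these cells, and sequenced bulk RNA from 2 control and 2 miR-205-induced libraries. The mice were C57BL/6 by label, 44 days old, sex-matched and carried a Krt14-H2B-GFP allele. In the induced group, doxycycline chow was given for 2 d from postnatal day 42, so that a Krt14-driven rtTA could switch on a pTRE2-miR-205 transgene in keratin 14-expressing epithelium; the founders were FVB. Controls were littermates. Their labels read untreated, while the protocol describes doxycycline for both groups, and which transgene the controls lacked is not given in the sources used here. Live cells were sorted for bright H2B-GFP, no Sca1, and high α6 integrin and CD34.

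Glucocorticoids bind the receptor encoded by Nr3c1 in the cytoplasm, where HSP90, HSP70 and immunophilin co-chaperones hold it ready for hormone. The bound receptor enters the nucleus and switches on genes through paired copies of a short DNA motif, among them genes that feed back on it. GAS6 is a secreted ligand and AXL its receptor tyrosine kinase, a member of the TAM family with TYRO3 and MERTK. In mouse skin, the stress hormone corticosterone is known to act on the dermal papilla to repress Gas6, and GAS6 from that niche is known to wake HF-SCs through AXL.

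The mature sequence of the induced miRNA, and its letters and those of the receptor motif in these genes, are given first. RefSeq (GRCm38.p6) places the mature miRNA at chr1:193507503-193507524 on the minus strand; its seed, bases 2 to 8, is in capitals.
mmu-miR-205-5p: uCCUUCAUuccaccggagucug
The letters that pair with the whole seed, ATGAAGG, were looked for on the sense strand of the longest 3′UTR of each gene in GENCODE vM1 (NCBIM37). Of the 10 genes, 1 held them, Axl, once, in its 3′UTR at chr7:26543174-26543180 on the minus strand. Over all 14417 measured genes with a 3′UTR, 11.8% held this match. The 29 bases around it are shown because Axl was the only member with a full seed match, which is in capitals.
Axl 3′UTR: agattctaggcATGAAGGttctaaggcat
The receptor's motif was looked for, on both strands, in 32851 RefSeq promoters of 300 bases (250 before to 50 after a gene start, GRCm38.p6), which covered 8 of the 10 genes with 15 promoters. The hexamer AGAACA was in 19.0% of all promoters and in 4 of the 15, which belonged to Sgk1 and Tsc22d3. The inverted pair, AGAACA and TGTTCT set 3 bases apart, which contains the hexamer on each strand, was in 3 of the 32851 promoters, or 0.00913%. Of the 15 member promoters, 1 held it: the Sgk1 promoter at chr10:21993640-21993939 on the plus strand, shown with the pair in capitals. The pair began 189 bases before the gene start.
Sgk1 promoter: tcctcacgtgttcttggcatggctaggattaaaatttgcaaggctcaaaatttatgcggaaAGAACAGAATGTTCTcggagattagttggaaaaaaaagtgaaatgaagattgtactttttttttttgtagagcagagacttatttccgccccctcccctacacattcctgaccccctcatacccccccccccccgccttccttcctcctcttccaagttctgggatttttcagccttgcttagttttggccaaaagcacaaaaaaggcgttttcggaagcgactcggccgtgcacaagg
These matches describe letters only, and no binding was measured here.

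Sgk1, which encodes a kinase that regulates ion channels and cell survival, had the highest level of the 10 genes. In GENCODE vM1 it lies at chr10:21601990-21719709 on the plus strand of NCBIM37, the build of all gene places given from here on. Its mean normalized count over the 4 libraries, the mean the authors deposited, was 19819, higher than in 99.7% of genes with a mean above 0. Levels were compared between genes per kilobase, as this mean divided by the length of the union of a gene's exons in GENCODE vM1. On that scale Sgk1 stood at 4042 per kilobase, the 99.1st percentile of 15377 genes with a length. This was 7.56 times the level of Nr3c1, and 10.4 times with the longest transcript as the length. Of the 10 genes, 8 lay above the median gene on both scales; the other two were Nr3c2 and Hsd11b1.

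**Figure D1:**
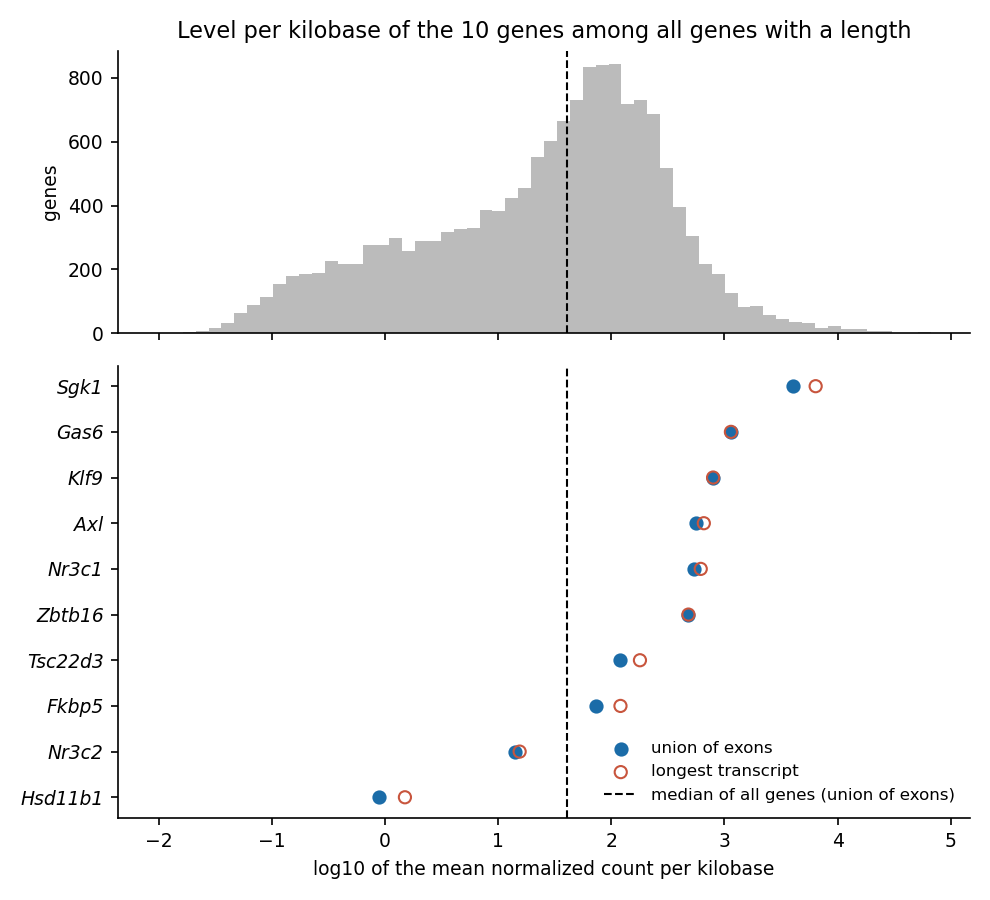
The upper panel is a histogram of the log10 mean normalized count per kilobase over all genes with a length, and the lower panel marks the 10 genes on the same axis, with filled points for the union of exons and open points for the longest transcript. Sgk1 is at the right at 4042 per kilobase, Hsd11b1 at the left at 0.875, and 8 of the 10 genes lie right of the dashed median.

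The 2 receptor genes differed widely in level. Nr3c1 had a mean normalized count of 3972 and a level of 535 per kilobase, at the 93.0th percentile. Nr3c2 (chr8:79423341-79768911, plus strand), whose product binds both aldosterone and corticosterone, had a mean of 91.5 and a level of 14.1 per kilobase, at the 35.4th percentile. The ratio of the pair per kilobase was 37.9, and 39.9 with the longest transcript. Hsd11b1 (chr1:195047824-195090248, minus strand), which encodes the enzyme that turns inert 11-dehydrocorticosterone into corticosterone, had the lowest level, with a mean of 2.37 and 0.875 per kilobase.

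The 5 responsive genes spanned a wide range. Klf9 (chr19:23215716-23241401, plus strand), a Krüppel-like transcription factor gene, had a mean of 2589 and 793 per kilobase. Zbtb16 (chr9:48462416-48644050, minus strand), which encodes the zinc finger repressor PLZF, had a mean of 2449 and 480 per kilobase. Tsc22d3 (chrX:137074067-137135198, minus strand), which encodes the anti-inflammatory leucine zipper protein GILZ, had a mean of 515 and 119 per kilobase, against 179 with the longest transcript. Fkbp5 (chr17:28536040-28654469, minus strand), which encodes an immunophilin that lowers the receptor's affinity for hormone, had a mean of 465 and 73.6 per kilobase, against 120 with the longest transcript. Thus Zbtb16 was 6.53 times as high per kilobase as Fkbp5 by exon union, and 3.99 times by longest transcript.

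Both genes of the ligand and receptor pair were high in RNA from the sorted samples. Gas6 (chr8:13465374-13494535, minus strand) had a mean of 2957 and 1141 per kilobase, at the 96.9th percentile and second of the 10 genes. Axl (chr7:26542292-26573724, minus strand) had a mean of 2803 and 557 per kilobase, at the 93.4th percentile. Gas6 stood 2.05 times above Axl per kilobase, and 1.74 times with the longest transcript. The samples also held RNA of fibroblast and myeloid markers, led by Col1a1 at 790 and Cd74 at 1946 per kilobase. Which cells the Gas6 and Axl reads came from was not tested.

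The deposited mean is written to 15 digits, and each gene's mean is a sum of whole reads of 4 libraries with fixed weights. This allowed the reads of each library to be worked out for genes where only a single set of whole numbers gave the written mean. The 4 libraries are called A to D in order of falling size factor, 1.24, 1.18, 0.966 and 0.716, the authors' scaling for depth. The letters are not tied to sample labels, so no comparison between control and induced HF-SCs was made, no p-value is given, and the values that follow are a description of 4 libraries. For 3 of the 10 genes, Nr3c2, Fkbp5 and Tsc22d3, a single set existed with each library at 25% of the mean or more. Hsd11b1 had a single set once that bound was dropped, and Zbtb16 and Klf9 a single set when each library was held between 50% and 200% of the mean, a bound added after the data were seen. Among 1358 genes with a single set and a mean of 600 to 1000, 99.6% lay within that bound. Gas6, Axl and Nr3c1 were left with several sets, and Sgk1 was too highly expressed to resolve.

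Tsc22d3 split the libraries in 2 pairs. Its normalized counts were 711 in A, 316 in B, 307 in C and 726 in D, from 879, 372, 297 and 520 reads. Libraries A and D were high and B and C low, with no overlap between the pairs, and each pair was close within itself. The highest library was 2.36 times the lowest. The exact Poisson 95% intervals, which cover counting error only, were 665 to 791 in D and 273 to 344 in C.

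Fkbp5 had the same libraries high and low. Its normalized counts were 597 in A, 278 in B, 358 in C and 625 in D, from 738, 328, 346 and 448 reads. B was the lowest, and the intervals of B, 249 to 310, and C, 321 to 398, did not overlap either. The highest library was 2.25 times the lowest. Without library B this ratio was 1.75.

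Zbtb16, under the added bound, had normalized counts of 3379 in A, 1449 in B, 1475 in C and 3494 in D. Again A and D were high and B and C low, with a ratio of 2.41 between the highest and the lowest. The next set in closeness to the mean, with C at 3045, B at 4135, A at 1477 and D at 1141, had its lowest library at 46.6% of the mean and so fell just outside the bound. The values of Zbtb16 therefore rest on the bound.

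Klf9, under the same bound, had normalized counts of 3123 in A, 2251 in B, 2050 in C and 2933 in D. The same pair was high, but the spread was smaller, 1.52 times between A and C. The next set had its lowest library at 42.3% of the mean.

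**Figure D2:**
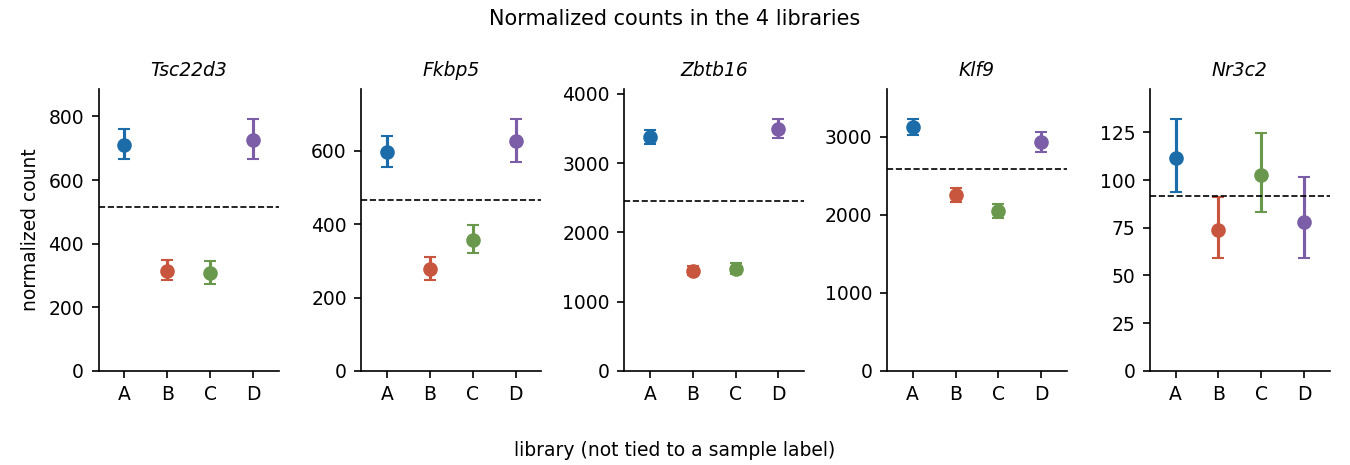
Each panel gives the normalized count of a gene in libraries A to D, with exact Poisson 95% intervals as bars, the deposited mean as a dashed line, and an axis that starts at 0. A and D lie above B and C in Tsc22d3 (711 and 726 against 316 and 307), Fkbp5, Zbtb16 and Klf9, while Nr3c2 is highest in A and C; Zbtb16 and Klf9 are shown under the bound of 50% to 200% of the mean.

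Nr3c2 varied less and in another order. Its normalized counts were 112 in A, 73.8 in B, 102 in C and 78.2 in D, from 138, 87, 99 and 56 reads. A and C were the higher libraries. The interval of A, 93.8 to 132, only just cleared that of B, 59.1 to 91.0, and the ratio was 1.51. Without library A or without library B the intervals of the highest and lowest remaining libraries overlapped, at ratios of 1.39 and 1.43.

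Hsd11b1 was barely detected. It had 1 read in A, 9 in B, 1 in C and 0 in D, so that 3 of the 4 libraries were at or below 3 reads and no fold is given. For the 0 reads in D the exact Poisson 95% upper limit was 5.15 normalized counts. The floor of 3 reads corresponds to 4.19 normalized counts in that library. The interval of B, 3.49 to 14.5, overlapped those of the other libraries.

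By the rule that the intervals of the highest and lowest library leave a gap, 3 of the 3 genes resolved under the 25% bound were called. Over all 12428 resolved genes, 48.7% were called, and over the 8969 with a mean over 50, 58.3% were. With most genes of that level called, a count of 3 genes says little about the members. As for the size of the spread, the median ratio over these 8969 genes was 1.3003, with an upper quartile of 1.49. Fkbp5 exceeded 95.7% of them, Tsc22d3 96.4% and, under the added bound, Zbtb16 96.7%. Nr3c2 exceeded 77.0% and Klf9 77.8%.

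**Figure D3:**
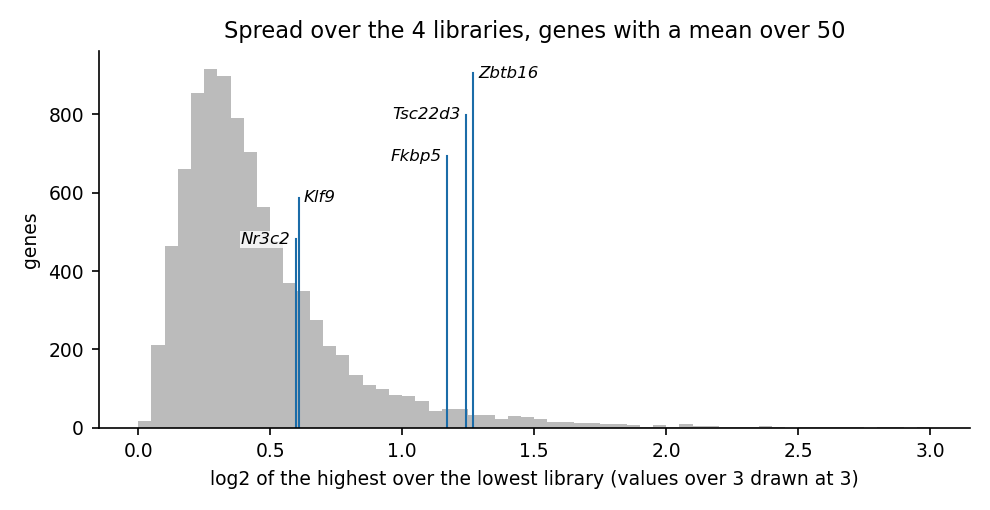
The histogram gives the log2 ratio of the highest to the lowest of the 4 libraries over 8969 resolved genes with a mean over 50, and lines mark the 5 members with a mean over 50 and a single set of values. Nr3c2 and Klf9 lie near the upper quartile of 1.49 on the linear scale, and Fkbp5, Tsc22d3 and Zbtb16 in the tail at ratios of 2.25 to 2.41.

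Genes whose values over the 4 libraries had a shape most like each member were found by distance between log2 values relative to the gene's own mean, over resolved genes with a mean over 50. Nearest to Zbtb16 was Tsc22d3, at a distance of 0.055, followed by Insig1 at 0.092 and Stard4 at 0.19. Nearest to Tsc22d3 was Insig1 at 0.090, with normalized counts of 1498, 696, 686 and 1670 in A to D, followed by Phf24 at 0.17 and Stard4 at 0.19. Zbtb16, resolved only under the added bound, was not a candidate in that search. For Fkbp5 the nearest were Fam46b at 0.11, Cryab at 0.13 and Prss8 at 0.20. For Klf9 they were Tmem41b, Rnf150 and Foxc1, at 0.030 to 0.031, and for Nr3c2 Arc at 0.063, Arl15 and Golph3l at 0.10 each. These distances rest on 4 libraries and carry no test.

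Between members, the order of levels could be read within libraries. Per kilobase, Tsc22d3 ranged from 70.8 to 167 and Fkbp5 from 44.1 to 99.02, so their ranges overlapped, yet Tsc22d3 was the higher in 4 of 4 libraries, by 1.25 to 1.73 times. Under the added bound, Klf9, at 628 to 957, likewise overlapped Zbtb16, at 284 to 685, and was higher in 4 of 4. Zbtb16, under the same bound, and Tsc22d3 did not overlap, and their ratio held between 3.91 and 4.10 in the 4 libraries. Both comparisons with Zbtb16 rest on that bound. The next Zbtb16 set, just outside it, had normalized counts of 1477, 4135, 3045 and 1141 in A to D. There B and C were the high libraries, so the ratio to Tsc22d3 would not be steady.

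For Gas6, Axl and Nr3c1 the mean left more than a single set within 50% to 200% of the mean. Gas6 allowed 2: normalized counts of 3041, 2820, 3043 and 2926 in A to D, or 3016, 2576, 3724 and 2513. Neither set had A and D as its 2 highest libraries, and the spread was 1.08 or 1.48 times. Axl also allowed 2: 2836, 2739, 2678 and 2958, a spread of 1.10 times, or 4533, 1584, 3155 and 1939, a spread of 2.86 times. A spread of 2.86 or more was seen in 0.515% of the 1358 resolved genes with a mean of 600 to 1000, and of 1.10 or more in 89.2%. For the 2 Gas6 spreads, 1.08 and 1.48, the shares were 94.3% and 10.6%. These shares come from genes of lower mean and do not settle which set of either gene holds. Nr3c1 allowed 5, of which the most even was 4292, 3976, 3204 and 4417, a spread of 1.38 times, and the others had spreads of 2.09 to 3.23 times. Whichever sets within that bound were paired, Gas6 was above Axl per kilobase in 4 of 4 libraries, by 1.29 to 3.46 times. Nr3c1 was likewise above Nr3c2, by 17.4 to 78.7 times. The order of Gas6 and Axl in each library rests on the bound. The next Gas6 set, with its lowest library at 48.0% of the mean, had normalized counts of 4714, 1421, 4201 and 1494 in A to D. The next Axl set had its lowest library at 47.8% of the mean.

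**Figure D4:**
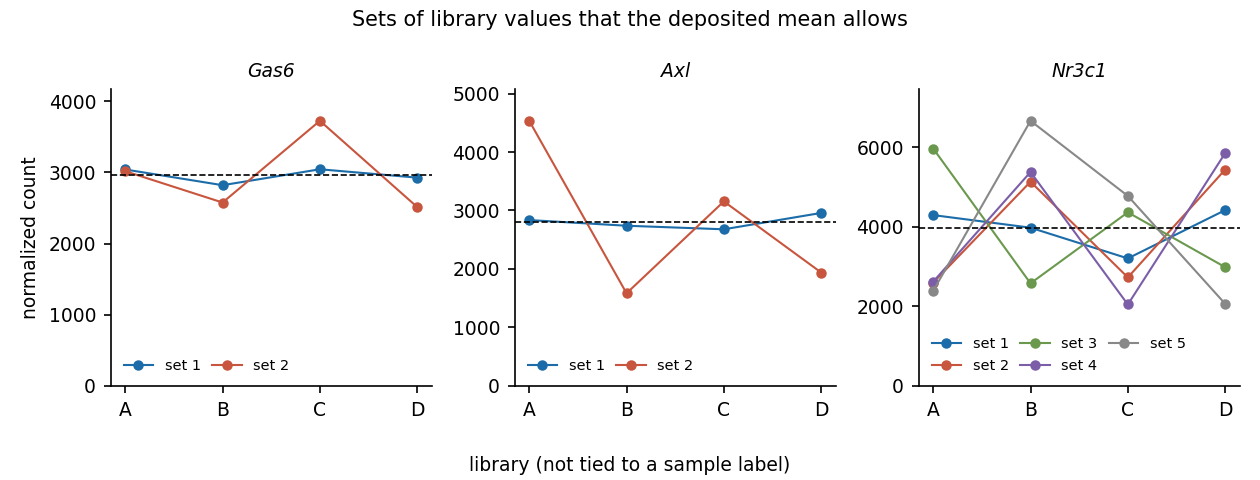
Each panel plots the sets of normalized counts in libraries A to D that give the deposited mean (dashed) of Gas6, Axl or Nr3c1 and keep each library between 50% and 200% of it; the lines join values of a set and imply no order. Gas6 and Axl each have an even set, with spreads of 1.08 and 1.10 times, and an uneven set, and Nr3c1 has 5 sets.

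RNA of the genes whose proteins hold and serve the receptor was abundant. Of 17 chaperone and co-regulator genes, 17 had a mean over 50, and their median level of 378 per kilobase was at the 90.1st percentile. Over all 17044 genes with a mean above 0, 10342 had a mean over 50. This is the background for such counts here and in the lists that follow. Highest were Hspa8, a constitutive HSP70, at 12469 per kilobase, Hsp90ab1 at 10211 and Hsp90aa1 at 4996. Of the 8 resolved, 6 had a gap between the highest and lowest library, beside 58.3% of genes with a mean over 50.

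Genes for making, converting or exporting corticosteroids, and for the hormonal control of their synthesis, were low or without reads. Of 13, 4 had no reads in the table: Cyp11b1, the last enzyme of corticosterone synthesis, Hsd3b1, Mc2r, the ACTH receptor gene, and Crh. The 9 with reads had a median of 2.31 per kilobase, at the 19.9th percentile. The highest were Abcb1b, a drug and steroid exporter gene, at 35.6 per kilobase, H6pd, whose product supplies NADPH to the enzyme of Hsd11b1, at 15.97, and Star, a cholesterol transporter gene, at 5.91. Hsd11b2, which encodes the opposing, inactivating enzyme, had a mean of 3.39, with 5.09 normalized counts in its highest library. Of the 6 resolved, 1 was called, H6pd, beside 48.7% of all resolved genes; 2 of the 6 had a mean over 50, where 58.3% were called.

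Other textbook glucocorticoid targets were mostly well expressed. Of 21, 17 had a mean over 50, and the median of the 19 with reads was 331 per kilobase, at the 88.5th percentile. Highest were the metallothionein genes Mt2 at 11243 per kilobase and Mt1 at 6136, and Dusp1, which encodes a MAP kinase phosphatase, at 6265. The liver gluconeogenic genes Tat and Pck1 had no reads. All 9 resolved genes of this list with a mean over 50 were called, beside 58.3% of such genes. Their order over the libraries varied: Ddit4, a brake on mTOR, was highest in D at 448 and lowest in C at 285, while Pdk4, which encodes a pyruvate dehydrogenase kinase, was highest in C at 493 and lowest in D at 240. Ddit4 and Pdk4 were chosen after their values were seen.

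Beside Axl and Gas6, 11 of 12 genes for TAM receptors, ligands and their processing had a mean over 50. Lgals3, a galectin gene, stood at 7841 per kilobase, Socs3, a feedback inhibitor of cytokine signalling, at 2300, and Mertk at 364. The third receptor gene, Tyro3, was at 151 per kilobase, and the other bridging ligand gene, Pros1, at 210. On this scale Axl, at 557, was thus above Mertk and Tyro3, and Gas6, at 1141, above Pros1. Of the 9 resolved with a mean over 50, 5 were called, a share near the 58.3% of all such genes, so that the count says nothing about the list. Their ratios of highest to lowest ran up to 1.38, in Adam10, a shedding protease gene. Mertk ranged from 1400 in C to 1720 in D, and Pros1 from 780 in D to 947 in A.

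**Figure D5:**
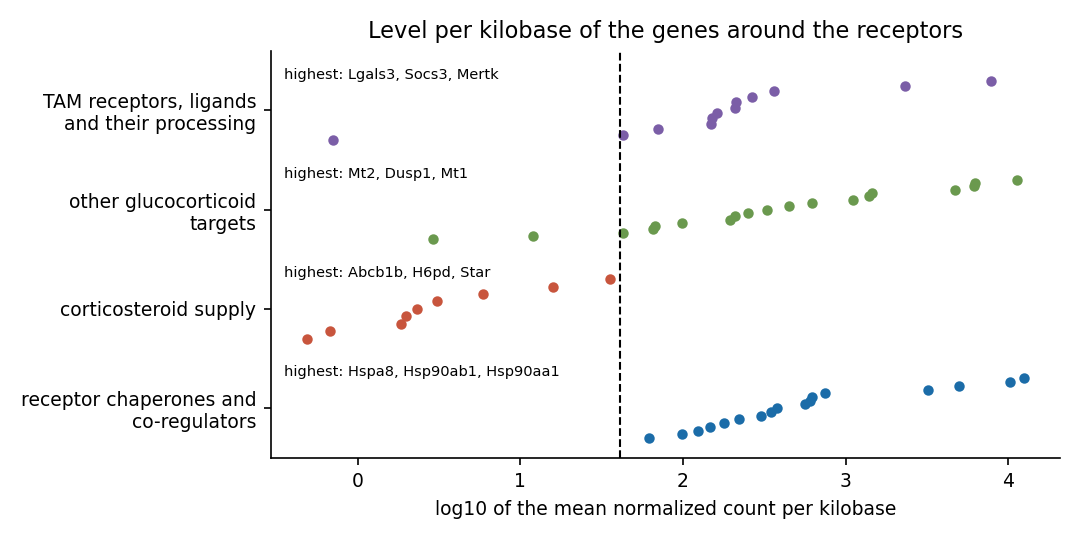
Points give the log10 mean normalized count per kilobase of the genes with reads in 4 lists around the receptors, and the dashed line is the median of all genes with a length. Chaperones and co-regulators all lie right of the line and corticosteroid supply genes all left of it, with medians of 378 and 2.31 per kilobase.

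Marker genes of HF-SCs and of other cells were read as a description of the sorted samples. All 12 HF-SC markers had a mean over 50, from 134 in Fgf18 to 146090 in Krt5, and Krt15 was the highest per kilobase. Cd34 and Itga6 in this list encode surface proteins the cells were sorted on. The keratin gene behind the GFP label is listed too. Their levels are therefore no independent check of the sort. The paper uses Krt5 as a marker of epithelial cells in general, so its level does not single out HF-SCs. Markers of other cells were also present. Of 10 fibroblast and dermal papilla markers, 8 had a mean over 50, led by Col1a1 at 790 per kilobase, but the dermal papilla marker Corin had a mean of 2.67. All 10 myeloid markers had a mean over 50, led by Cd74 at 1946 per kilobase. Adipocyte markers were at or near 0, with Lep at 0 and the highest per kilobase, Cidec, at a mean of 1.70, and the T cell genes Cd3e and Cd3g at 9.52 and 4.85. Endothelial genes were low, led by Tek at 10.9 per kilobase. Melanocyte, suprabasal and sebaceous genes were led by Mitf at 325, Krt10 at 3461 and Scd1 at 638 per kilobase. The medians of these lists were lower, at 103, 831 and 308 per kilobase in the same order.

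Some of these lists varied over the same libraries as the members. The HF-SC list could not be followed over the libraries, as only 1 of its 12 markers was resolved. That marker, Fgf18, was at 198, 103, 124 and 109 in A to D. The summed normalized count of 9 of 10 myeloid markers was 2798 in A, 5431 in B, 3569 in C and 2111 in D, so that the sum was higher in B and C, the low libraries of Tsc22d3, Fkbp5, Zbtb16 and Klf9. Of the 9 markers, 8 had B and C both above A and D. Over the 8969 resolved genes with a mean over 50, 23.7% did. The exception among the markers, the Langerhans cell gene Cd207, was at 256, 189, 324 and 205. The sum in B was carried mostly by H2-Aa and H2-Ab1, at 1930 and 1902. For 7 of 10 fibroblast and dermal papilla markers the sums were 2352, 2256, 2604 and 2168. For 4 of 5 melanocyte markers they were 830, 668, 1949 and 335, with C far above the rest, and for 1 of 4 suprabasal markers, Lor, 422, 623, 1183 and 187. For 4 of 4 endothelial markers they were 172, 137, 161 and 69.8, for 2 of 4 sebaceous markers 623, 515, 465 and 302, for 2 T cell genes 12.1, 12.7, 14.5 and 18.1, and for 3 adipocyte genes 0, 8.48, 1.03 and 1.40. The part of these cells in the spread of the members was not tested. In bulk RNA, fewer cells of a type and less RNA per cell cannot be told apart.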

How the data were processed

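RNA from 4 HF-SC samples that passed the study's RNA integrity minimum was made into libraries with a directional kit. Per the labels and the study's methods, paired-end reads of 150 nt were aligned by the authors (HISAT2 2.1.0, SAMtools 1.3.1) and assigned to genes with HTSeq, and 2 control were compared with 2 induced libraries by the authors in DESeq2 at default settings. The build is named mm10 in the labels and NCBI37/mm10 in the methods; neither the annotation nor the version of the authors' DESeq2 was found in the sources used here. The deposited signal used here is the authors' mean over the 4 libraries of counts divided by size factors. The other 5 columns hold the authors' own comparison (log2 fold change, its standard error, statistic, p-value and adjusted p-value) and were not used; there were 0 columns of per-sample values. Whether samples were separate animals is not stated per sample.

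Members and lists were chosen with earlier results of these data known. Named genes were the 10 members, the 3 highest per kilobase and those without reads in each pathway list, the highest per kilobase in each marker list, and the 3 nearest genes in shape. Beside these, Hsd11b2, Tyro3, Pros1, Adam10, Ddit4, Pdk4, Stip1, Ptges3, Ncoa3 and Ncoa1 fall outside that rule. So do the markers Fgf18, Krt5, Corin, Cd3g, Cd207, H2-Aa, H2-Ab1, Lor and Lep. All of these were chosen after their values were seen. Lengths came from GENCODE vM1 (NCBIM37), matched by symbol for 15377 of 17044 genes. Whole reads were found by listing, for each of 16520 genes, all sets of 4 whole numbers whose weighted sum gave the written mean, with the weights read from genes of few reads; the other genes would have had over 30 sets by chance. At least 1 set was found for all 1297 genes with a mean of 1000 to 2000, and none for 20 genes, whose means were 6.21 or less. The main rule kept a gene with a single set in which each library lay between 25% and 400% of the mean, and 12428 genes passed. Reads so recovered over 8969 genes with a mean over 50 summed to 2948792 to 5209791 per library, which is part of a library and not its depth. Intervals are exact Poisson 95% intervals of a read count, scaled as the count. Python 3.11.15, numpy 2.4.6, pandas 2.3.3 and scipy 1.17.1 were used, and the steps were tested on simulated data.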

Additional observations from a re-analysis of the deposited data

How the results depend on the processing

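Above the median gene by mean normalized count stood 8 of the 10 genes, 8 when ranked among genes with a mean over 50 and 6 among those with a mean over 200. Per kilobase it was 8, also with the longest or the mean transcript length, and 7 among genes with a mean over 50. Reads were recovered for 3 members, 3 with a tolerance 3 times as wide, 4 with no bound, and 5 with each library between 50% and 200% of the mean, an alternative chosen after the data were seen. The highest and lowest library left a gap in 3 members, in 5 under that added bound, in 3 with no bound, and in 2 with 99% intervals or with scaling by total recovered reads, each of which lost Nr3c2. Leaving out a library in turn gave 2 to 3. The shares over all resolved genes, 48.7% and, with a mean over 50, 58.3%, are for the main rule only. The counts under the other settings therefore have no background beside them and say little about the members. The ratios of Tsc22d3 stayed between 2.30 and 2.36, of Fkbp5 between 1.75 and 2.25 and of Nr3c2 between 1.39 and 1.51. The mean over the other 3 libraries could not be given for members without recovered reads. No paired analysis was possible because the deposited column carries no sample. The depth limits Hsd11b1, with 11 reads in all, and the written digits limit Gas6, Axl, Nr3c1 and Sgk1.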

Other observations

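The 4 libraries carry no sample label, so which values lie together is given here with each library's value and without a group name. In Tsc22d3, Fkbp5 and, under the added bound, Zbtb16 and Klf9, the 95% intervals of A and D all lay above those of B and C: 711 and 726 against 316 and 307 in Tsc22d3, 597 and 625 against 278 and 358 in Fkbp5, 3379 and 3494 against 1449 and 1475 in Zbtb16, and 3123 and 2933 against 2251 and 2050 in Klf9. Over the 8969 resolved genes with a mean over 50, 717 had such a gap between 2 libraries and the other two, which is 7.99%. In 397 of the 717 genes, or 55.4%, A and D were the higher pair, and in 183, or 25.5%, B and C were; each of the 4 other pairings held 24 to 58 genes. Nr3c2, at 112, 73.8, 102 and 78.2 in A to D, had no such gap. Neither candidate set of Gas6 within 50% to 200% of the mean had A and D as its highest libraries.

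Stip1 encodes the co-chaperone that joins HSP70 to HSP90 on the receptor. It was higher in A and D, at 1643 and 1575, than in B and C, at 1138 and 1074. It was picked out after its values were seen. Over the 8969 resolved genes with a mean over 50, A and D were the highest libraries in 23.2%. In the same list, Ptges3, at 1536, 1241, 1212 and 1332 in A to D, also had A and D highest. So did Ncoa3, at 1186, 1110, 1024.5 and 1316. Of the 8 resolved chaperone and co-regulator genes, 1 had B and C above A and D, beside 23.7% of the 8969 genes. The gene with B and C above was Ncoa1, at 868, 963, 954 and 833 in A to D.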
